A study of Mus musculus with 6 samples.

Results

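The genes described here encode 10 enzymes that hydroxylate and crosslink collagen. These genes were picked by symbol, with earlier results of these data known. They are the lysyl oxidases *Lox*, *Loxl1*, *Loxl2*, *Loxl3* and *Loxl4*, the lysyl hydroxylases *Plod1* and *Plod2*, and the catalytic α subunits of collagen prolyl 4-hydroxylase *P4ha1*, *P4ha2* and *P4ha3*. All 10 were present among the 15280 genes of the expression table. The expression of 7 of the 10 was higher in mammary tumors than in adjacent normal mammary glands, from 3.13-fold for *P4ha1* to 13.7-fold for *P4ha3*. *Loxl4*, *Plod1* and *Loxl1* had smaller differences, and no member was lower in the tumors.

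RNA-Seq was performed on whole tissue from 3 parous female BK5.ATF3 mice. Each mouse gave a single mammary tumor (libraries T11035, T11640 and T9232) and a normal mammary gland next to it (M11035, M11640 and M9232, with the number of the same mouse). Both tissues carried the transgene, in which the bovine keratin 5 promoter drives *ATF3* in basal epithelial cells, so the glands are not wild-type tissue. Tumors arose at 6 to 12 months of age, and the animals were sacrificed when the tumor reached 1.5 cm. The question was which of these enzymes differ between the tumor and the gland of the same mice.

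Collagen is hydroxylated inside the cell and crosslinked outside it. Prolyl 4-hydroxylase, a tetramer of α subunits and the β subunit encoded by *P4hb*, modifies prolines in the nascent chain and thereby makes the triple helix stable at body temperature. The lysyl hydroxylases modify lysines, which then carry sugars or take part in crosslinks. Both groups of enzymes use oxygen, 2-oxoglutarate, iron and ascorbate. Lysyl oxidases are secreted copper enzymes that turn lysines and hydroxylysines of collagen and elastin into reactive aldehydes, from which covalent crosslinks form. In mammary tissue, crosslinked collagen is known as a source of matrix stiffness.

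The libraries held 4750989 to 7806908 fragments counted on the genes of the expression table, fewer than the read pairs sequenced. A count of 3 fragments corresponded to 0.393 to 0.610 CPM (counts scaled to a common library size). The lowest count of any of the 10 enzyme genes in any library was 14 fragments. Whole tissue was sequenced, so fewer cells of a type and less RNA per cell cannot be told apart. The glands M11035 and M11640 stood apart in that their 6 skeletal muscle markers summed to 3809 and 1490.5 CPM, against 4.65 CPM in M9232 and 8.65 to 19.2 CPM in the tumors. A differentially expressed gene (DEG) had a false discovery rate (adjusted p) of at most 0.05 and a fold change of at least 2 on the log2(CPM + 0.5) scale. Adjusted p-values came from limma across all 15280 genes unless another test is named. Among all genes, 14.5% were upregulated DEGs and 13.7% were downregulated DEGs.

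Short stretches of promoter are shown first, because some of these genes are known targets of the hypoxia-inducible factors, which bind the core letters ACGTG or GCGTG. RefSeq promoters (GRCm38.p6, 250 bases before to 50 bases after the start site) were matched for 5 of the 10 genes, namely *P4ha1*, *P4ha2*, *P4ha3*, *Plod1* and *Loxl4*. The windows of 30 bases were placed on mm9 by exact match and are written 5′ to 3′, with a motif or its reverse complement in capitals. Further matches in the promoters of *P4ha1*, *P4ha2* and *Plod1* are not shown. A GCGTG that also lies in the upper *P4ha2* window is left in lower case.
P4ha1 at chr10:58786015-58786044, plus strand: gtgtgacagagcgCACGTagcgagggctgc
P4ha2 at chr11:53914335-53914364, plus strand: gtgtgcatcgcatACGTGcagcgcgtggcg
P4ha2 at chr11:53914423-53914452, plus strand: gcgggaggtggggACGTGgcggaggctcaa
Plod1 at chr4:147310889-147310918, minus strand: gaggcgggcggagGCGTGcgcggcaccgcc
Loxl4 at chr19:42687442-42687471, minus strand: ctccgtcacccccCACGCtccccgcagcgc
ACGTG or GCGTG, read on both strands, was present in 4 of the 5 promoters, with *P4ha3* as the exception. The same letters were present in 43.8% of all 32851 promoters of the table. ACGTG alone was found in 2 of the 5 promoters and in 19.6% of all promoters. The cyclic AMP response element TGACGTCA, the class of site to which ATF3 is known to bind, was in none of the 5 and in 1.79% of all. The AP-1 site TGANTCA was also in none of the 5 and in 7.81% of all. Of these 5 genes, *P4ha1*, *P4ha2* and *P4ha3* were upregulated DEGs, and *Plod1* and *Loxl4* were not DEGs. No promoter was available for *Lox*, *Loxl1*, *Loxl2*, *Loxl3* and *Plod2*. Whether any of these sites bears on expression was not tested.

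Of the 10 enzyme genes, 7 were upregulated DEGs and 0 were downregulated DEGs. Without the fold threshold, 9 genes passed the FDR and were higher in the tumors, where 21.6% of all genes did so. For 9 genes all 3 tumors lay above all 3 glands, a pattern shown by 27.6% of all genes. All 10 genes were higher in the tumor than in the gland of the same mouse in 3 of 3 mice. The median log2 fold change was 2.30 over the 10 genes and -0.0028 over all genes. Within mice, the median log2 difference of the 10 genes was 1.89 between T11035 and M11035, 2.13 between T11640 and M11640 and 2.75 between T9232 and M9232.

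**Figure D1:**
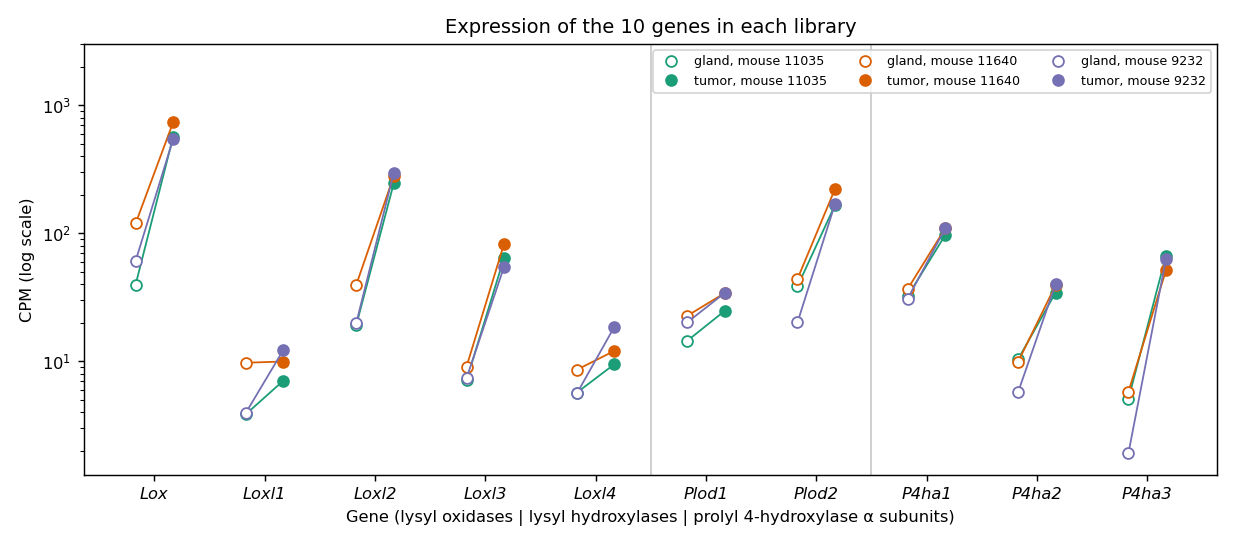
Expression of the 10 enzyme genes in CPM on a log axis. Open circles are normal glands, filled circles are tumors, and each line joins both tissues of 1 mouse. Every line slopes upward, steeply for *Lox*, *Loxl2*, *Loxl3*, *Plod2* and *P4ha3*, and the line from M11640 to T11640 for *Loxl1* is nearly flat (9.75 to 9.96 CPM).

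Among the lysyl oxidases, *Lox*, the founding member of the family (chr18:52675723-52689521, mm9, minus strand), was the most abundant. It was at 39.6, 119 and 60.7 CPM in the glands M11035, M11640 and M9232, and at 563, 734 and 542 CPM in the tumors T11035, T11640 and T9232. The groups did not overlap, and M11640 was the highest of the glands. The mean rose from 73.2 ± 41.2 to 613 ± 105 CPM (SD, n = 3), a log2 fold change of 3.19 (SE 0.35, limma adjusted p = 1.68e-04).

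*Loxl2* (chr14:70008978-70095640) encodes an oxidase known for crosslinking collagen IV of basement membranes. It was at 19.1, 39.5 and 19.8 CPM in the glands and at 245, 279 and 296 CPM in the tumors. Every tumor lay far above every gland, and M11640 was again the highest gland. The difference was 10.8-fold, with a log2 fold change of 3.44 (SE 0.27, limma adjusted p = 2.90e-05). Its transcripts shared stretches of at least 100 bp at 95% identity with 33 other genes, the longest being 198 bp.

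*Loxl3* (chr6:82984167-83002556) encodes an oxidase required for palate and spine development in mice. It was at 7.12, 9.08 and 7.39 CPM in the glands and at 64.2, 82.7 and 54.7 CPM in the tumors. The glands were tightly grouped and the tumors lay well above them. The gene rose by a log2 fold change of 3.00 (SE 0.21, limma adjusted p = 1.61e-05). Its exons overlap those of *Htra2* on the opposite strand over 535 bp, and the strand setting of the fragment counting was not given in the sources used here. *Htra2* was at a mean of 6.97 CPM in the glands and 5.14 CPM in the tumors (log2 fold change -0.42, limma adjusted p = 0.204).

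The remaining lysyl oxidases were low in both tissues. *Loxl1* (chr9:58135530-58161019), which is known for its part in maintaining elastic fibers, was at 3.86, 9.75 and 3.97 CPM in the glands and at 7.07, 9.96 and 12.3 CPM in the tumors. The groups overlapped, since M11640 exceeded T11035. The log2 fold change of 0.78 did not pass the test (SE 0.37, 95% confidence interval -0.07 to 1.63, limma adjusted p = 0.127). Without M11640 it was 1.19 and passed (adjusted p = 0.0172).

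*Loxl4* (chr19:42668472-42687303), which with *Loxl2* and *Loxl3* forms the subgroup with scavenger receptor domains, was at 5.69, 8.59 and 5.61 CPM in the glands and at 9.49, 12.1 and 18.6 CPM in the tumors. The tumors lay above the glands without overlap, and T9232 was the highest. The log2 fold change was 0.93 (SE 0.30, 95% confidence interval 0.26 to 1.61, limma adjusted p = 0.0334), which passed the FDR but not the fold threshold. The gene became a DEG with edgeR's quasi-likelihood test (1.01, adjusted p = 0.0318) and with DESeq2 (1.02, adjusted p = 0.0230). It also became a DEG without M11640 (1.12) and without T11035 (1.14). The FDR was not passed when M11035 (limma adjusted p = 0.0807), M9232 (0.0846), T11640 (0.0851) or T9232 (0.114) was left out.

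Of the lysyl hydroxylases, *Plod2* (chr9:92437061-92503266) encodes the enzyme that acts on the telopeptides, the short ends of the chains where crosslinks start. It was at 38.4, 43.9 and 20.1 CPM in the glands and at 166, 221 and 169 CPM in the tumors. The tumors did not overlap the glands, and M9232 was the lowest gland. *Plod2* rose 5.60-fold, with a log2 fold change of 2.49 (SE 0.28, limma adjusted p = 2.11e-04).

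*Plod1* (chr4:147283862-147310876) encodes the enzyme that modifies lysines within the triple helix. It was at 14.4, 22.6 and 20.1 CPM in the glands and at 24.8, 34.1 and 34.2 CPM in the tumors. The groups did not overlap, but T11035 was close to M11640. The log2 fold change of 0.70 (SE 0.23, 95% confidence interval 0.18 to 1.21) passed the FDR (limma adjusted p = 0.0369) and not the fold threshold. That threshold was reached in none of 18 alternative fits. The FDR was not passed by limma without the mean-variance trend (adjusted p = 0.0550). Nor was it passed when M11035 (limma adjusted p = 0.0968), M9232 (0.0558), T11640 (0.134) or T9232 (0.115) was left out.

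*Plod3*, the remaining lysyl hydroxylase, which also adds sugars to hydroxylysine, is not among the 10 genes and is given for comparison. It was at 10.4, 13.9 and 14.5 CPM in the glands and at 16.4, 24.6 and 31.9 CPM in the tumors. Its log2 fold change was 0.85 (SE 0.27, limma adjusted p = 0.0331), so it was not a DEG. Without T11035 it was a DEG (1.10, adjusted p = 0.0128). It did not pass the FDR when M11035 (limma adjusted p = 0.0888), M11640 (0.0556), T11640 (0.109) or T9232 (0.114) was left out. Its exons overlap *Znhit1* on the opposite strand over 529 bp.

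The α subunits of prolyl 4-hydroxylase carry the active site. *P4ha1* (chr10:58786044-58836052), the main α subunit of most cell types, was at 32.3, 36.8 and 30.9 CPM in the glands and at 97.0, 109 and 109 CPM in the tumors. Both groups were tight, and they did not overlap. *P4ha1* rose by a log2 fold change of 1.64 (SE 0.15, limma adjusted p = 5.96e-05), the smallest among the 7 DEGs with the smallest standard error of the 10 genes.

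*P4ha2* (chr11:53913597-53945167), an α subunit known from cartilage and bone cells, was at 10.4, 9.91 and 5.75 CPM in the glands and at 34.4, 39.3 and 40.2 CPM in the tumors. The groups did not overlap, and M9232 was the lowest gland. *P4ha2* rose by a log2 fold change of 2.11 (SE 0.24, limma adjusted p = 2.36e-04).

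*P4ha3* (chr7:107434030-107468209) encodes the α subunit that was characterized last and is known to be low in most adult tissues. It was at 5.08, 5.78 and 1.92 CPM in the glands and at 66.6, 51.2 and 62.6 CPM in the tumors. Every tumor was far above every gland, and M9232 held 14 fragments of it. The log2 fold change of 3.78 (SE 0.35, limma adjusted p = 7.03e-05) was the largest of the 10. However, its 95% confidence interval of 2.98 to 4.58 overlapped those of *Lox*, *Loxl2*, *Loxl3* and *Plod2*.

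*P4hb*, the shared β subunit and a protein disulfide isomerase, was at 116, 166 and 182 CPM in the glands and at 311, 413 and 351 CPM in the tumors. It was an upregulated DEG with a log2 fold change of 1.23 (SE 0.20, limma adjusted p = 0.00141). With M9232 as the only gland its log2 fold change was 0.96, below the fold threshold.

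**Figure D2:**
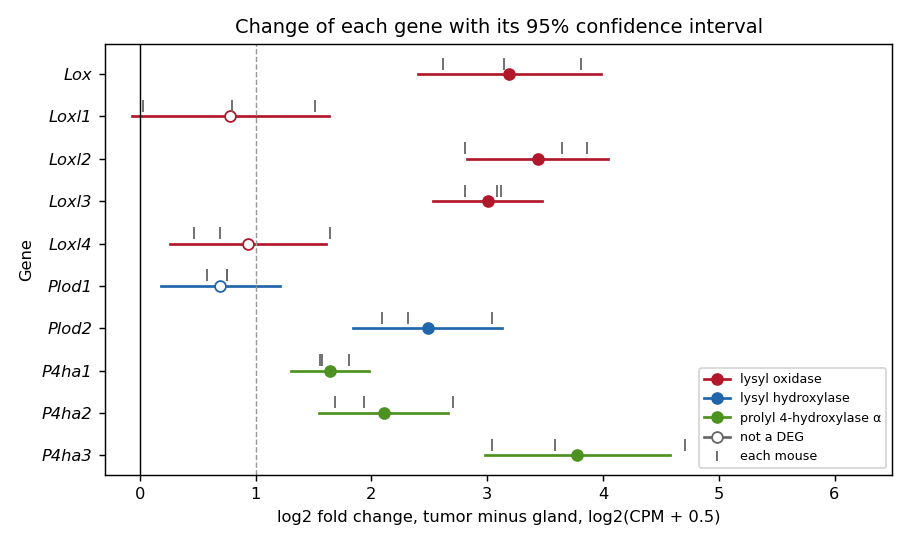
Log2 fold change, tumor minus gland, of each enzyme gene on the log2(CPM + 0.5) scale. Circles are limma estimates with 95% confidence intervals as bars, filled for DEGs, ticks are the differences within each of the 3 mice, and the dashed line marks a fold change of 2. *Loxl1*, *Loxl4* and *Plod1* lie between 0.70 and 0.93, and the other 7 genes between 1.64 and 3.78.

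Levels were compared between genes as CPM per kb of exon, with all annotated exons of a gene merged. In the glands *Lox* had the highest mean level, 15.6 CPM per kb, followed by *Plod2* at 8.17 and *P4ha1* at 8.11 CPM per kb. The ranges of *Lox* and *Plod2* overlapped, as did those of *Plod2* and *P4ha1*. *P4ha1* lay above *Loxl2* (4.89 CPM per kb), and *Loxl2* above *Plod3* (2.86 CPM per kb), without overlap. *P4ha2* and *P4ha3* were the lowest at 1.39 and 1.40 CPM per kb, and did not differ beyond their spread. In the tumors *Lox* stood above all the others at 131 CPM per kb without overlap. Next came *Loxl2* at 51.1 and *Plod2* at 44.4 CPM per kb, whose ranges overlapped, and then *P4ha1* at 25.6 CPM per kb. *P4ha3* at 19.8 and *Loxl3* at 16.0 CPM per kb overlapped each other and were followed by *P4ha2* at 6.09 CPM per kb. From *P4ha2* down to *Loxl1* at 2.93 CPM per kb, each gene overlapped the next.

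The make-up of the families was compared as each gene's percent of its family's summed CPM per kb. With 3 tumors against 3 glands the exact permutation test (two-sided) cannot give a p below 0.1, and after adjustment over 11 shares that value became 0.138, so no share passed 0.05. Among the α subunits, *P4ha1* made up 70.2%, 72.0% and 82.9% in the glands and 46.2%, 53.5% and 49.6% in the tumors. *P4ha3* made up 14.9%, 15.3% and 6.94% in the glands and 42.9%, 33.9% and 38.4% in the tumors. Both shares were separated between the tissues without overlap (exact permutation p = 0.1 for each), in opposite directions. The share of *P4ha2* was 12.6% ± 2.35 in the glands and 11.8% ± 0.935 in the tumors (SD, n = 3, exact permutation p = 0.6).

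Among the lysyl hydroxylases, *Plod2* made up 57.8% ± 12.4 in the glands and 81.6% ± 4.09 in the tumors (SD, n = 3, exact permutation p = 0.1). The share of *Plod1* was 20.8% ± 5.76 in the glands and 8.44% ± 1.01 in the tumors, and that of *Plod3* was 21.4% ± 6.79 and 9.91% ± 3.08. All 3 shares were without overlap between tissues. Among the lysyl oxidases, *Lox* made up more than any other member in both tissues, 59.2% ± 6.22 in the glands and 63.9% ± 3.38 in the tumors, and its groups overlapped (exact permutation p = 0.4). *Loxl2* had 19.4% ± 2.29 and 25.3% ± 3.30, and *Loxl3* had 8.10% ± 2.53 and 7.82% ± 0.897. *Loxl1* and *Loxl4* had smaller shares in the tumors, at 1.45% ± 0.415 and 1.58% ± 0.623, than in the glands, at 6.71% ± 0.899 and 6.60% ± 1.62, without overlap.

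**Figure D3:**
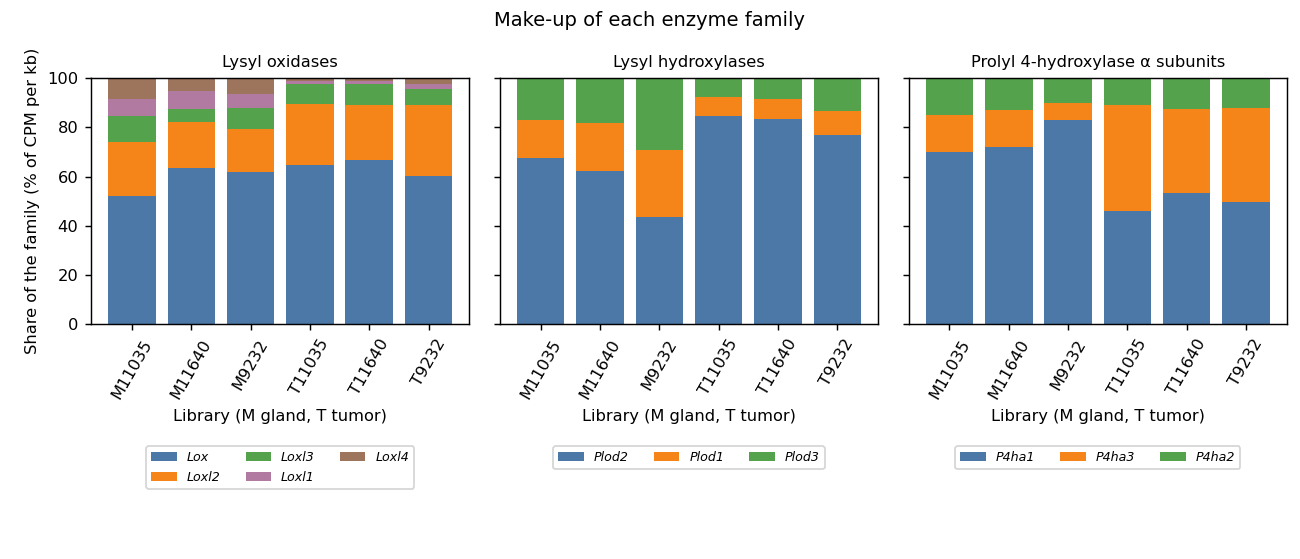
Percent of the summed CPM per kb of exon that each gene contributed to its family in each library, stacked to 100%. M marks glands and T marks tumors, and *Plod3* is included to complete its family. *P4ha3* occupies 33.9% to 42.9% of the α subunits in the tumors and 6.94% to 15.3% in the glands.

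The enzymes were also set against their substrate, the summed transcripts of the main fibrillar collagen chains *Col1a1*, *Col1a2* and *Col3a1*. These chains were themselves upregulated DEGs with log2 fold changes of 4.63, 3.75 and 2.60. Their summed level was 105 ± 79.3 CPM per kb in the glands and 851 ± 49.2 CPM per kb in the tumors (SD, n = 3), an 8.14-fold difference of the means. The lysyl oxidases together went from 25.7 ± 12.5 to 204 ± 26.3 CPM per kb, 7.94-fold. The lysyl hydroxylases, 3.92-fold higher in the tumors, and the α subunits, 4.72-fold higher, had smaller differences of the means. The collagen value rested on M11640, at 195.5 CPM per kb against 50.2 and 68.0 CPM per kb in M11035 and M9232. Without M11640, a choice made after seeing the data, the collagen chains were 14.4-fold higher in the tumors and the lysyl oxidases 11.0-fold, and the lysyl hydroxylases and α subunits were 4.41-fold and 5.08-fold higher.

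The log2 ratio of lysyl oxidases to fibrillar collagen was -1.63, -2.29 and -1.70 in the glands and -2.16, -1.96 and -2.09 in the tumors. The groups overlapped, and the mean difference of -0.19 did not pass (exact permutation p = 0.4). The log2 ratio of lysyl hydroxylases was -1.88, -3.53 and -2.63 in the glands and -4.14, -3.84 and -3.96 in the tumors, a difference of -1.30 without overlap (exact permutation p = 0.1, adjusted over 3 families 0.3). For the α subunits it was -2.17, -3.97 and -2.91 in the glands and -4.02, -4.19 and -3.93 in the tumors, a difference of -1.03 with overlap (exact permutation p = 0.2). The glands were spread widely, with M11640 lowest in all 3 families. The differences depended on single glands. Without M11035 they were -0.07, -0.90 and -0.61 for the oxidases, hydroxylases and α subunits (exact permutation p = 0.8, 0.1 and 0.2). Without M11640 they were -0.40, -1.72 and -1.51 (exact permutation p = 0.1 for each). Against *Col1a1* alone, with all 6 libraries, they were -1.56, -2.66 and -2.40 (exact permutation p = 0.1 for each, the smallest possible).

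**Figure D4:**
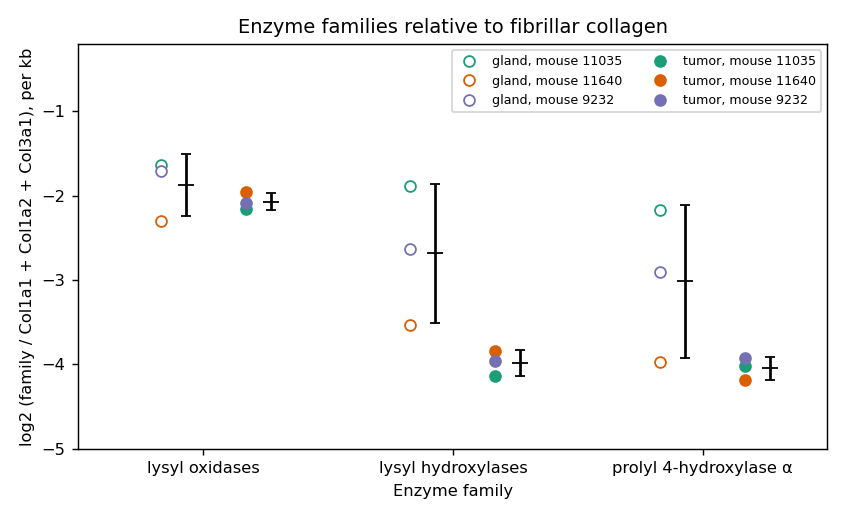
Log2 ratio of each enzyme family's summed CPM per kb to that of *Col1a1*, *Col1a2* and *Col3a1* in each library. Open circles are glands, filled circles are tumors, and bars are the mean ± SD of 3 libraries. The glands range over more than the tumors in every family, and only the lysyl hydroxylases are without overlap.

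Other genes of the pathway were counted on lists of known function. In these counts, genes that rose were upregulated DEGs (14.5% of all genes) and genes that fell were downregulated DEGs (13.7% of all genes). Among other collagen modifying enzymes and their partners, 10 genes were measured, of which 4 rose and 1 fell, with a median log2 fold change of 0.90. The risers were *P4hb*, the prolyl 3-hydroxylases *Lepre1* (1.32) and *Leprel2* (1.61), and their partner *Crtap* (1.14). *Glt25d2*, a galactosyltransferase for hydroxylysine, fell from 11.7 ± 4.07 to 3.55 ± 1.13 CPM (log2 fold change -1.57, limma adjusted p = 0.00489).

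Of 11 chaperones and export factors of collagen, 6 rose and 0 fell, with a median log2 fold change of 1.08. The highest was *Fkbp10*, a prolyl isomerase of the endoplasmic reticulum, which went from 2.90 ± 0.972 to 18.5 ± 3.43 CPM (log2 fold change 2.52, limma adjusted p = 2.17e-04). The collagen chaperone *Serpinh1* had a log2 fold change of 2.02, and the lowest value was that of the potassium channel gene *Tmem38b*, -0.29, which did not pass. Of 7 genes of propeptide processing, 4 rose and 0 fell, with a median of 1.28. *Bmp1*, the proteinase that removes the C-propeptide of procollagen and is also known to activate the lysyl oxidase precursor, went from 8.46 ± 4.16 to 55.5 ± 3.23 CPM (log2 fold change 2.74, limma adjusted p = 1.59e-04). *Pcolce2*, an enhancer of that proteinase, had the lowest value, -0.33, and its sign turned without M11640.

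The collagen substrates were counted on lists of their own. Of 9 fibrillar collagen chains in the table, 8 rose and 0 fell, with a median log2 fold change of 3.25. The highest was *Col24a1* at 4.76 and the lowest *Col27a1* at 0.16, which did not pass (limma adjusted p = 0.578). Of 5 basement membrane collagen chains, *Col4a1* rose (1.19) and *Col4a6* fell (-1.47), and the median was -0.34. The call of *Col4a6* was lost in 7 of 18 alternative fits and that of *Col4a1* without M9232. Of 10 elastic fiber genes, 7 rose and 1 fell, with a median of 1.81. The highest was the fibrillin gene *Fbn2*, from 1.44 ± 0.691 to 53.5 ± 18.9 CPM (log2 fold change 4.78), and *Ltbp4*, a latent TGFβ binding protein of elastic fibers, fell (-1.12), a call lost in 3 of 18 alternative fits. The elastin gene *Eln*, the other main substrate of lysyl oxidases, had a log2 fold change of -0.26 and did not pass (limma adjusted p = 0.43).

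Of 10 proteoglycans and glycoproteins that associate with fibrils, 4 rose and 3 fell, with a median log2 fold change of 0.64. The range ran from the matricellular gene *Postn*, with a log2 fold change of 3.42, to *Tnxb*, which encodes tenascin-X and went from 27.1 ± 19.0 to 2.42 ± 1.93 CPM (log2 fold change -3.20, limma adjusted p = 0.00223). Among 5 genes of copper supply, the Golgi copper pump *Atp7a*, which is known to load lysyl oxidase with copper, rose from 145 ± 42.3 to 377 ± 56.3 CPM (log2 fold change 1.41, limma adjusted p = 0.00157). The other 4 did not pass, and the median log2 fold change of the 5 was 0.49.

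The oxygen-sensing hydroxylases of the hypoxia-inducible factors use the same cofactors as the collagen hydroxylases. Of 4 such genes only *Egln3* was a DEG, rising from 15.9 ± 2.06 to 186 ± 33.8 CPM (log2 fold change 3.50, limma adjusted p = 4.92e-06). *Egln2* had the lowest value, -0.39 (limma adjusted p = 0.248), and the median of the 4 genes was -0.20. Of 12 genes known to respond to hypoxia, 4 rose and 1 fell, with a median log2 fold change of 0.78. Of all genes, 14.5% were upregulated DEGs and 13.7% downregulated DEGs. The highest was the glucose transporter gene *Slc2a1* (2.96) and the lowest *Pfkfb3* (-1.64), an enzyme gene of glycolytic control.

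**Figure D5:**
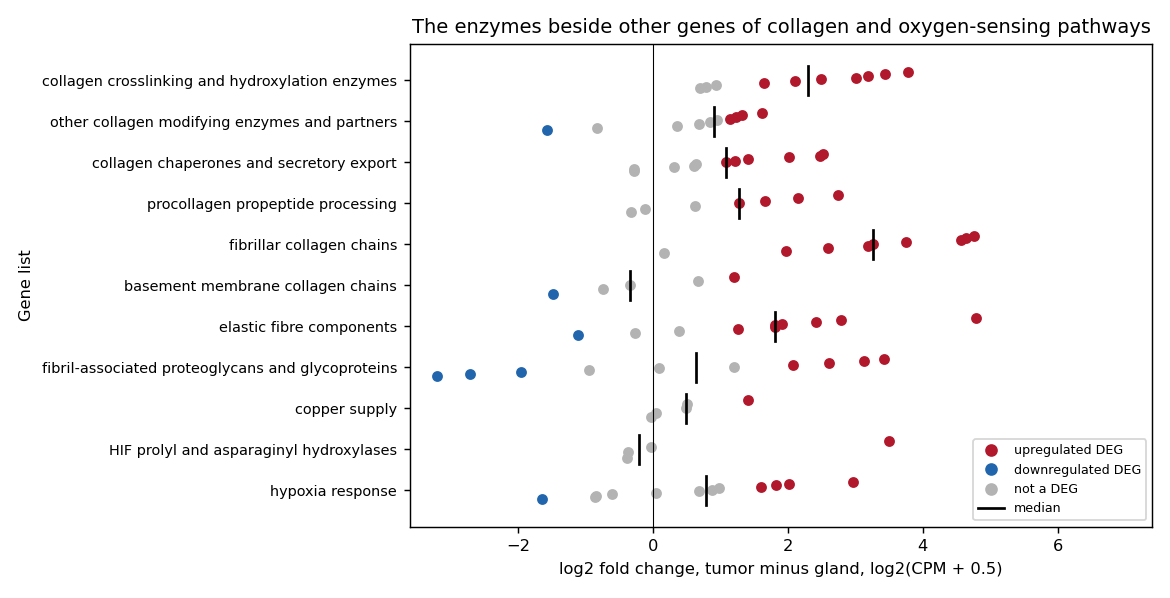
Log2 fold change, tumor minus gland, of every gene in the table on each list, with the 10 enzyme genes in the top row. Red points are upregulated DEGs, blue points downregulated DEGs and gray points not DEGs, and black bars are list medians. The median of the 10 enzymes is 2.30, that of fibrillar collagen chains 3.25 and that of the hypoxia response 0.78.

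Markers of several cell types differed between the same tissues. Their counts are again of upregulated and downregulated DEGs, which were 14.5% and 13.7% of all genes. The fibroblast markers, of cells known to make fibrillar collagen, summed to 421 to 1435 CPM in the glands and 574 to 803 CPM in the tumors, with 3 of 8 up and 1 down. The 8 adipocyte markers all fell, from sums of 3313 to 6513 CPM to 159 to 218 CPM. Of the epithelial markers 7 of 8 rose, from sums of 231 to 501 CPM to 2430.4 to 2840.2 CPM. All 8 squamous markers rose, from 13.8 to 15.9 CPM to 2271 to 3690.0 CPM, with *Lor* at 0 in all 3 glands. Epithelial and squamous markers were thus both present in all 3 tumors.

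Neutrophil markers rose for 5 of 6 genes, and their sums were 77.6 to 167 CPM in the glands and 887 to 1482 CPM in the tumors. All 8 lymphocyte markers fell, from 247 to 649 CPM to 16.6 to 28.0 CPM. Contractile markers had 2 of 8 genes down (sums of 380 to 612 CPM and 252 to 327 CPM), and so did endothelial markers (354 to 486 CPM and 214 to 290.1 CPM). Macrophage markers had 1 of 8 up and 1 down, at 248 to 845 CPM and 426 to 694 CPM. Only 2 of 6 cartilage and bone markers were in the table, at sums of 3.96 to 5.20 CPM in the glands and 7.34 to 22.0 CPM in the tumors, and 1 of them rose. Of the 6 skeletal muscle markers 1 was a downregulated DEG, and 0 were higher in the tumors by value. The part of these differences in the enzyme values was not tested.

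With M9232, the gland that was nearly free of skeletal muscle transcripts, as the only gland, the same 7 enzyme genes were DEGs. Their log2 fold changes then ran from 1.75 for *P4ha1* to 4.64 for *P4ha3*. The lone gland was assumed to vary as the tumors did in this fit, which was chosen after seeing the data. *Atf3*, the mouse gene of the factor that the transgene encodes, was at 4.47, 8.09 and 22.6 CPM in the glands and at 13.4, 18.3 and 19.3 CPM in the tumors. The groups overlapped and the log2 fold change of 0.80 did not pass (limma adjusted p = 0.223). This value depended on single glands. *Atf3* was an upregulated DEG without M9232 (1.41, limma adjusted p = 0.00804), and its log2 fold change was -0.41 with M9232 as the only gland. Without M11035 it was 0.30 (limma adjusted p = 0.594).

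The expression patterns most like those of 3 of the enzymes were sought among the 9338 genes whose mean reached 10 CPM, by the root mean square difference of centered log2 values over the 6 libraries. For *Lox* these were *Fstl1*, *Col5a2* and *Thbs2*, at 0.167, 0.167 and 0.169. For *Plod2* they were *Fkbp10* at 0.101, *Gja1* at 0.192 and *Hr* at 0.193. For *P4ha1* they were *Pqlc1*, *Cpeb2* and *Ankrd50*, at 0.0689, 0.0700 and 0.0733.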

How the data were processed

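The 6 libraries (Trizol RNA, Ovation RNA-Seq System V2) were single tumors and adjacent glands of 3 mice, so the groups share animals. Per the labels and the study's methods, the authors used CASAVA 1.8.2, mapped read pairs to mm9 with TopHat2 2.0.3, counted fragments per RefSeq gene with HTSeq 0.5.3p9, removed genes with fewer than 10 fragments and computed CPM on effective library sizes with edgeR 3.6.1. The deposited signal is that CPM, whose columns sum to 952151 to 1041166. Every value was a whole number of fragments within 0.01, so counts were recovered.

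Values were tested as log2(CPM + 0.5) with limma 3.58.1 (mean-variance trend, two-sided, no block, Benjamini-Hochberg over 15280 genes). The alternatives, including edgeR 4.0.16 and DESeq2 1.42.0 on recovered fragments, are given in the closing section. The fit was tested on counts simulated with the same relative spread for every gene and no effect of the mouse. That setting was simpler than these libraries, so no result here rests on it. Exon lengths and overlaps came from GENCODE vM1 (mm9), and transcript similarity from BLAST 2.17.0. Same-numbered libraries come from the same mouse, and their deviations from the group means correlated at 0.107, 0.151 and 0.0168 over 14712 genes. The most alike pair of libraries of a tissue differed by a chi-square of 13.0 per degree of freedom, so none was a duplicate.

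The enzymes, lists and tests were chosen with earlier results of these data known. All 10 enzyme genes are named. Other named genes are *Plod3*, *P4hb*, *Col1a1*, *Col1a2*, *Col3a1*, *Atf3*, the highest and lowest of each list, and 3 most alike genes for *Lox*, *Plod2* and *P4ha1*. *Lepre1*, *Leprel2*, *Crtap*, *Serpinh1*, *Eln* and *Htra2* were added after their values were seen. The precision is limited by 3 mice, and floors of 3 fragments cover counting error only.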

Additional observations from a re-analysis of the deposited data

How the results depend on the processing

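Under 18 alternative fits and a call without the fold threshold, 0 enzyme genes were called lower, all 10 kept their direction, and the 7 called genes stayed called in all 18. Fits with edgeR's quasi-likelihood test (with or without its low-count filter), DESeq2 and without T11035 called 8, those without M11640 called 9, and leaving out single libraries gave 7 to 9. Without the fold threshold 9 were called, of which *Loxl4* and *Plod1* did not pass the FDR in every alternative fit. The fits with the mouse as a replicate block called 7, both with limma and with edgeR, and the block changed no call of limma on the 10 genes. For shares and ratios, the exact sign-flip test within mice cannot go below 0.25. Over all genes, leaving out single libraries gave 1952 to 2237 genes up and 1822 to 2137 down, no fold threshold gave 3293 and 2996, and M9232 as the only gland gave 1667 up.

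The direction of small differences turned for a few values. The log2 fold change of *Atf3* was -0.41 with M9232 as the only gland. Over single libraries left out, that of *Pcolce2* ran from -1.12 to 0.62 and that of *Slc31a2*, a copper transporter, from -0.28 to 0.28. The difference in family share of *Loxl3* ran from -1.61 to 0.90 percentage points over single libraries left out. That of *P4ha2* ran from -1.98 to 0.37 and was 0.17 without division by length. Of 360 list counts recomputed, 18 differed more than 1.5 times, including no basement membrane chain down in 7 fits and 2 other modifying enzymes up, in place of 4, with M9232 as the only gland. The causes were not tested.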
